A study of Homo sapiens with 24 samples.

Results

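Ribosome biogenesis factors are the proteins and enzymes that cut, modify, fold and export the precursors of ribosomes. The 38 human genes described here were taken from a fixed list of nucleolar and ribosome assembly genes, and were matched by symbol to a table of counted reads for 58381 gene IDs. All 38 were found, and all 38 were among the 20820 genes that passed the filter on low counts. They were read from messenger RNA of 4 established lines of bladder cancer cells (5637, CLS-439, T24 and TCC-SUP), each with and without mitomycin C (MMC), which crosslinks DNA. Treated cells received 75 µM MMC for 1 h, and the RNA of all groups was taken 15 h after treatment. Each of the 8 groups (4 lines, untreated or treated) has 3 libraries, numbered 1, 3 and 4 and described in the series' design text as biological replicates. No engineered allele, transgene or second agent is given in the labels. The question was which of these genes are higher or lower after MMC in each line, and whether the lines differ.

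Ribosomes are built in the nucleolus, where RNA polymerase I transcribes a long precursor RNA that is modified by small nucleolar ribonucleoproteins (snoRNPs) and cut by a large processome. The small and large subunits then mature along separate routes, each with its own assembly factors, before export to the cytoplasm. Growing and tumour cells use this pathway heavily, the transcription factor MYC is known to drive many of its genes, and damage to DNA or to the nucleolus is known to affect nucleolar structure. By role the 38 genes comprise 5 abundant nucleolar proteins and polymerase I factors, 3 box C/D snoRNP proteins, 4 box H/ACA snoRNP proteins with their chaperone, 10 proteins of the small subunit processome, 6 late small subunit factors and 10 large subunit factors.

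Levels are CPM, the counted reads of a gene relative to the scaled size of its library, and values of 3 libraries are always given in the order of replicates 1, 3 and 4. Fold changes are log2 ratios of treated to untreated cells with their standard error (SE). Each adjusted p is from edgeR's quasi-likelihood test with Benjamini-Hochberg adjustment over the 20820 genes, and a gene is said to have risen or fallen only at an adjusted p under 0.05. Shares of all genes called are those of this test, and none are given for counts at an unadjusted p or by DESeq2. None are given either for refits without a single library. CPM measures a gene's share of the library, so fewer cells of a type and less RNA per cell cannot be told apart in these bulk samples.

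The 6 CLS-439 libraries stood apart from the 18 others. Mitochondrial genes held 0.0238% to 0.0283% of their reads, against 3.21% to 7.4% elsewhere, and processed pseudogenes held 2.97% to 3.25%, against 0.179% to 0.272%. Whether the RNA of these libraries matches the human reference was not tested, so every CLS-439 value, the BOP1 call and the untreated differences included, is uncertain. Results are therefore given for T24, 5637 and TCC-SUP first, and those fitted with CLS-439 are also given without it where that matters. Library totals ran from 13791428 to 28821665 counted reads. Of 15 epithelial and urothelial markers, 8 to 12 were at 1 CPM or more in each line and state, while UPK3A, a urothelial plaque protein, was at 0 in every T24 and 5637 library. TCC-SUP also held all 7 mesenchymal markers at 1 CPM or more.

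Promoters of 33 of the 38 genes were matched by symbol in RefSeq (GRCh38.p14), each as a window from 250 bases before to 50 bases after the annotated start. NOP58, BOP1, RRP1B, RRP12 and NOLC1 were not matched. The palindromic E-box CACGTG, the sequence that MYC and related factors are known to bind, was found in 18 of 33 windows (54.5%), against 10.9% of 15843 protein-coding genes, 12.1% of 11524 protein-coding genes tested here and 27.1% of 85 other ribosome biogenesis genes. It reads the same on both strands. In 17 of the 33 (51.5%) the motif began within 40 bases of the start, a placement held by 3.34% of all protein-coding genes. The 9 windows below belong to genes whose responses are described further on or that hold the motif close to the start. Each is written 5′ to 3′ on the gene's own strand with the E-box in capitals.
PES1: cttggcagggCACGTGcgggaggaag
BYSL: cttcagtcccCACGTGcgatccttcc
PNO1: tgcagctgcgCACGTGtttcagccgg
UTP18: agcgaggttcCACGTGagcgcctgcg
WDR43: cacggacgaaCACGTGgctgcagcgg
DDX21: ccgggtgtccCACGTGgtccccggcg
UTP4: agcgcgcgcgCACGTGgggccggggc
FBL: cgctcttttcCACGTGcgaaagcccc
GNL3: cttcagttcaCACGTGgcgccagcgg

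These windows lie at chr22:30591882-30591907 (PES1, minus strand), chr6:41921517-41921542 (BYSL, plus), chr2:68157887-68157912 (PNO1, plus) and chr17:51260540-51260565 (UTP18, plus). The others lie at chr2:28894660-28894685 (WDR43, plus), chr10:68956606-68956631 (DDX21, plus), chr16:69132623-69132648 (UTP4, plus), chr19:39846358-39846383 (FBL, minus) and chr3:52686028-52686053 (GNL3, plus). With the start counted as base 1, the motif began at base 14 in PES1, 29 in BYSL, 10 in PNO1, 5 in UTP18, 4 in WDR43, 7 in FBL and 7 in GNL3. In DDX21 and UTP4 it began before the start, at -31 and -16. UTP18 held a further match at -89. The bases around the motif differ from gene to gene. Among other motifs searched on both strands, the ETS motif CCGGAAG was in 36.4% of the 33 windows, 16.5% of all protein-coding genes, 20.5% of those tested and 47.1% of the 85 other ribosome biogenesis genes. For the GC box GGGCGG these shares were 81.8%, 64.3%, 75.2% and 61.2%. They were 6.06%, 12.4%, 9.27% and 4.71% for TATAAA, and 42.4%, 42.1%, 42.7% and 38.8% for CCAAT. None of these motifs contains another. A match describes the letters only and is no evidence that a factor binds there.

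In untreated cells the most abundant of the 38, compared per kilobase of exon, was NPM1 (nucleophosmin, a nucleolar chaperone of histones and ribosomal proteins) in every line. Its level was 631 ± 56.6 CPM per kilobase in 5637 (SD, n = 3), 568 ± 18.6 in T24, 308 ± 18.8 in TCC-SUP and, lowest, 212 ± 9.77 in CLS-439. NCL (nucleolin, a nucleolar RNA-binding protein) came next at 223 ± 28.0 in T24, 200 ± 15.2 in CLS-439, 194 ± 17.0 in 5637 and 110 ± 20.4 in TCC-SUP, and the first 3 of these lie within their spread. In CLS-439 NPM1 and NCL were within their spread of each other when reads in pseudogenes of NPM1 were left out. With those reads added and no division by length, untreated NPM1 was at 1146 ± 62.4 CPM in CLS-439 and 1203 ± 72.2 in TCC-SUP. The rank of NPM1 in CLS-439 among the lines, and its likeness to NCL there, are therefore uncertain. The lowest level was that of NOP2, an RNA methyltransferase of the large subunit route, at 0.240 to 1.41 CPM per kilobase. This level is uncertain, because 54.4% of the exon bases of NOP2 are shared on the same strand with the gene AC006064.6. WDR12 and UTP15 were next lowest or near it, at 4.54 to 9.87 and 5.69 to 8.18. The order of the 38 genes was alike in the lines. Spearman's rho of the levels per length, over 38 genes, ran from 0.75 to 0.92 between lines, with the lower values in pairs with CLS-439. This is a description across genes, which share libraries and exon lengths.

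**Figure D1:**
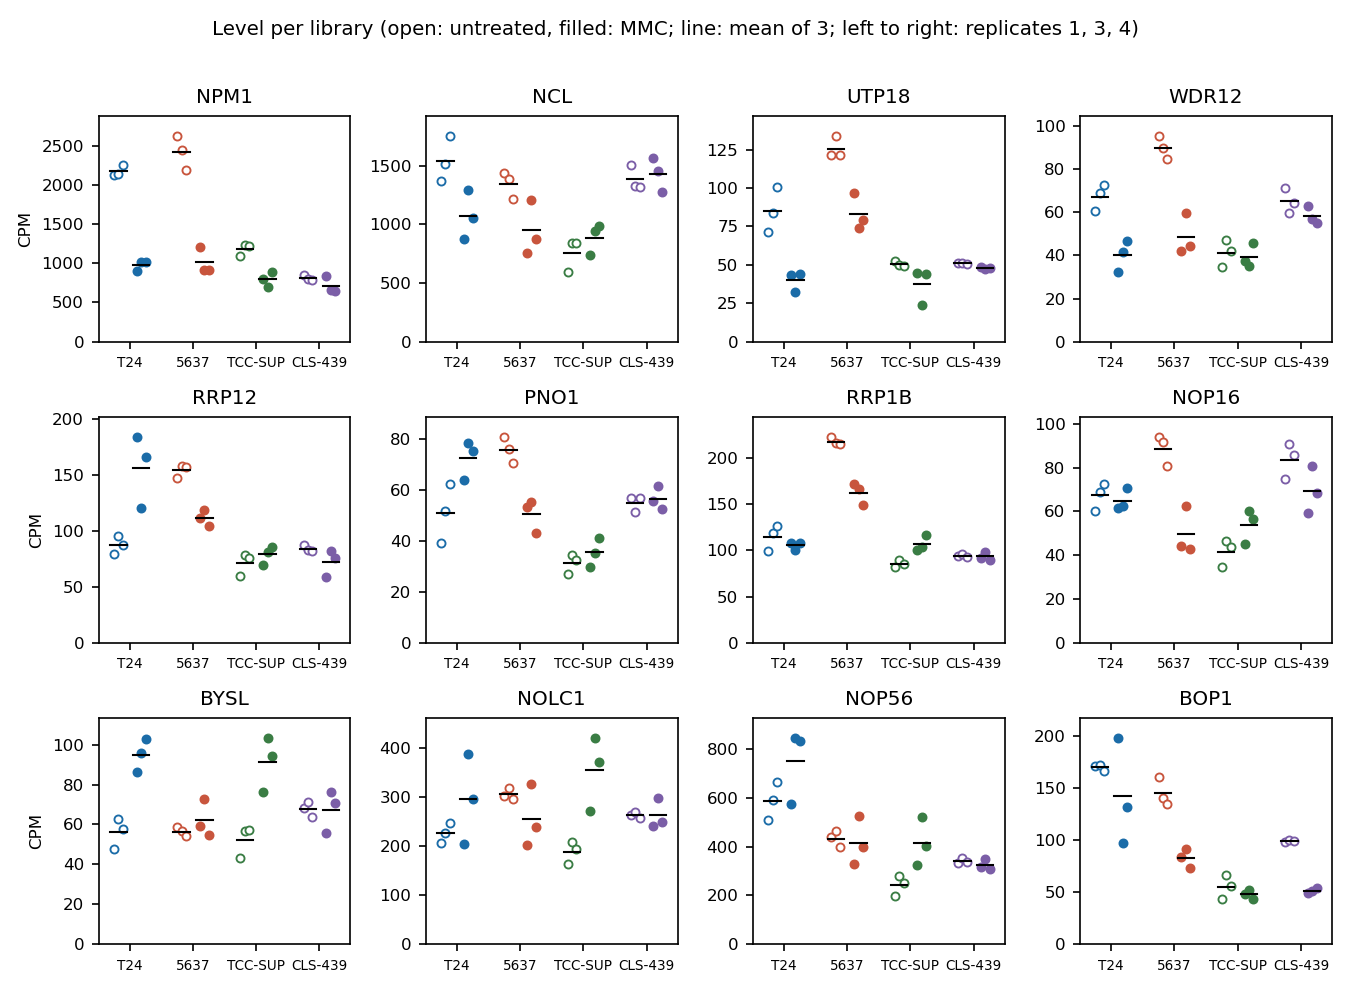
Level of 12 of the 38 genes in every library, as CPM on a linear axis from 0 that differs by gene, by line, with open points for untreated libraries, filled points for treated ones and a bar at the mean of 3. The 12 were chosen after their values were seen. Treated NPM1 points lie below the untreated ones in T24, 5637 and TCC-SUP, and treated BYSL points lie above the untreated ones in T24 and TCC-SUP.

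TCC-SUP held less of most of these messages than T24 and 5637 before any drug. TCC-SUP and CLS-439 were not compared by a test. Against untreated T24, 27 of the 38 were lower (22.9% of all genes tested were lower) and 0 were higher by edgeR (28.4% of all genes were, 51.3% together with the lower ones), with 1 higher at an unadjusted p under 0.05 and 1 by DESeq2. The median difference was -0.71 on the log2 scale, against 0.01 for all genes. Against untreated 5637, 28 were lower and 3 higher (27.1% and 29.5% of all genes, 56.6% together), with a median of -0.85 against 0.00. GAR1, a core box H/ACA protein, had 36.9, 44.2 and 37.9 CPM in untreated 5637 and 12.6, 15.5 and 12.2 CPM in untreated TCC-SUP. The libraries did not overlap (log2 difference -1.56, SE 0.18, adjusted p = 5.48e-08). BOP1 was 1.62 lower than in T24 on the log2 scale (SE 0.18, adjusted p = 3.25e-08), at 43.6, 66.7 and 55.5 CPM against 172, 172 and 166. The 3 genes higher in TCC-SUP than in 5637 were UTP20, NOP2 (with the uncertain count given above) and UBTF. The marker lists differed between these lines too. The summed mesenchymal markers were at 9928 CPM in untreated TCC-SUP and 83.8 in T24, and the summed epithelial ones at 2528 and 6565. Their part in the lower levels was not tested.

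Untreated 5637 and T24 did not differ in one direction. In 5637, 8 of the 38 genes were higher and 8 lower than in T24 (24.5% and 22.1% of all genes, 46.6% together), with a median of 0.16. RRP1B, a large subunit factor, was 0.92 higher on the log2 scale (SE 0.11, adjusted p = 7.81e-08), at 222, 215 and 214 CPM against 99.0, 119 and 126. NOB1, the nuclease that makes the last cut of the small subunit RNA, was 0.99 lower in 5637 (log2 difference -0.99, SE 0.14, adjusted p = 1.16e-06), at 64.4, 56.5 and 55.4 CPM against 108, 124 and 117. The number of higher genes was 3 without T24 untreated replicate 1. The number of lower genes was 5 without 5637 untreated replicate 3 or T24 untreated replicate 3, 4 without 5637 untreated replicate 4 and 3 without T24 untreated replicate 4.

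NPM1 fell after MMC in T24, 5637 and TCC-SUP, and the calls of all members are counted here by line. In T24, 8 of the 38 rose and 5 fell (15.2% and 13.4% of all genes tested, 28.6% in all), with a median log2 fold change of 0.02. In 5637, 17 fell and 0 rose by edgeR (13.6% and 15.9% of all genes, 29.4% together), with a median of -0.33. In TCC-SUP, 11 rose and 1 fell (9.57% and 11.1% of all genes, 20.7% together), with a median of 0.32. In CLS-439, 1 fell and 0 rose (0.322% and 0.298% of all genes, 0.62% together), with a median of -0.10. The median over all genes tested was 0.00 in each line. The counts of 0 rises in 5637 and CLS-439 were also 0 at an unadjusted p under 0.05 and by DESeq2. The epithelial and mesenchymal marker lists had lower sums after MMC in T24, 5637 and TCC-SUP, given here without a test. Single markers of both lists did not all move with the sums. VIM made up most of the mesenchymal sum in T24 and 5637. In 5637 mean VIM was at 701 CPM untreated and 556 treated, while mean COL1A1 was at 28.6 and 66.4. Summed epithelial markers were at 6565 CPM untreated and 4660 treated in T24, 7555 and 5486 in 5637, and 2528 and 1612 in TCC-SUP. In TCC-SUP the mesenchymal markers were at 9928 and 5495 CPM and the leukocyte ones at 30.2 and 11.7. Their part in the responses was not tested.

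**Figure D2:**
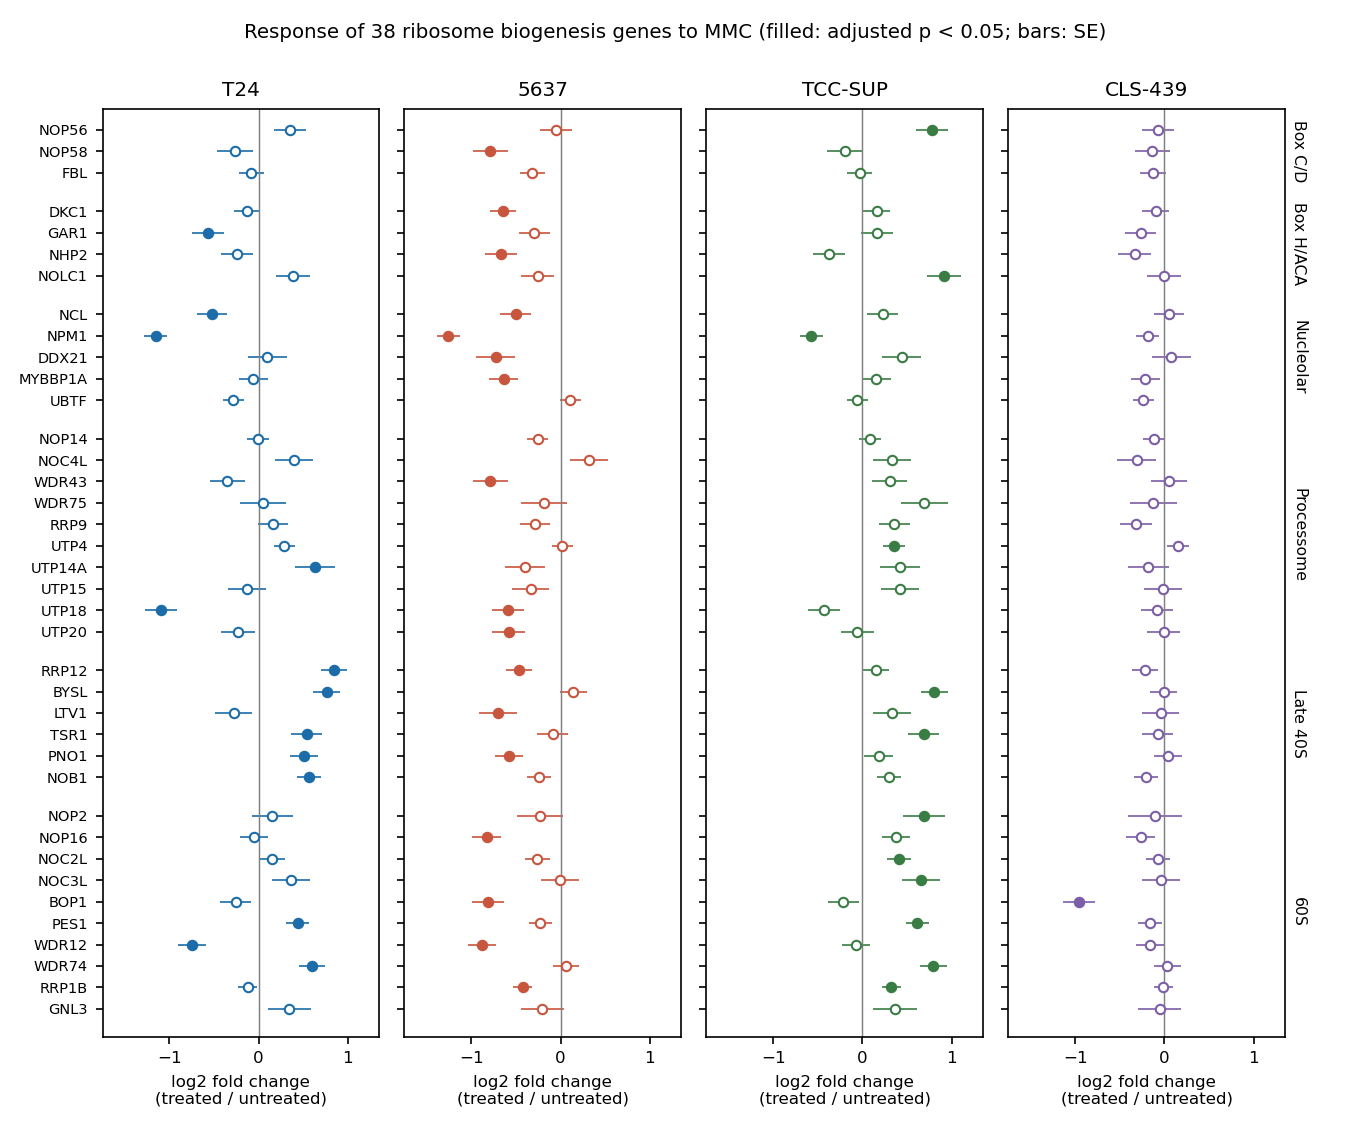
Log2 fold change of treated against untreated cells for each of the 38 genes, grouped by role, in the 4 lines, with bars for 1 SE and filled points where the adjusted p was under 0.05. In 5637 most points lie below 0 and in TCC-SUP most lie above it, while CLS-439 points lie near 0 apart from BOP1.

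In sign alone, 33 of 38 fold changes were negative in 5637 and 29 of 38 were positive in TCC-SUP. T24 was split at 19 and 19. Over T24, 5637 and TCC-SUP, NPM1 alone passed the test in all 3 lines, 10 genes passed in 2, 19 in 1 and 8 in none. Of all genes, 28.6% passed in T24, 29.4% in 5637 and 20.7% in TCC-SUP. The share of all genes that passed in more than 1 line was not counted. The 8 were FBL, NOP14, NOC4L, WDR75, RRP9, UTP15, GNL3 and UBTF. PES1, WDR74, BYSL and TSR1 rose in both T24 and TCC-SUP, and NCL, NPM1, WDR12 and UTP18 fell in both T24 and 5637. RRP12 and PNO1 rose in T24 and fell in 5637, and RRP1B rose in TCC-SUP and fell in 5637.

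The counts moved with single libraries, and shares of all genes are not given for these refits. Where a replicate number was left out of every group, the shares of all genes, given below, moved too. The 8 rises of T24 were 13 without treated replicate 1, 5 without treated replicate 3, 4 without treated replicate 4, 4 without untreated replicate 1 and 5 without untreated replicate 3, and the 5 falls were 3 without treated replicate 4. The 17 falls of 5637 were 11 without treated replicate 4. In TCC-SUP the 11 rises were 5 without treated replicate 3, 6 without treated replicate 4, 5 without untreated replicate 1 and 6 without untreated replicate 4, and the fall of 1 gene became 2 without treated replicate 1. The calls that held whichever of the 6 libraries of a line was left out were the rises of RRP12, BYSL, WDR74 and NOB1 and the falls of NPM1, WDR12 and UTP18 in T24. In 5637 they were the falls of NPM1, NOP58, NOP16, BOP1, WDR12, WDR43, RRP1B, DKC1 and MYBBP1A. In TCC-SUP they were the rises of NOP56, NOLC1, BYSL, WDR74 and PES1 and the fall of NPM1, and in CLS-439 the fall of BOP1. Without replicate 4 in every group, which leaves 2 libraries a group, 1 gene rose and 3 fell in T24 (3.91% and 3.59% of all genes), 3 fell in 5637 (4.17%) and 0 changed in TCC-SUP (0.477% rose and 0.824% fell). Without replicate 3 the counts were 5 rises and 4 falls in T24 (8.12% and 8.51% of all genes), 9 falls in 5637 (6.58%) and 4 rises and 0 falls in TCC-SUP (1.68% and 4.01%). Without replicate 1 they were 12 rises and 7 falls in T24 (17.1% and 17.2%), 17 falls in 5637 (18.2%) and 12 rises and 3 falls in TCC-SUP (13.4% and 16.1%). Replicate 1 had the lowest level of its group for 23 of 38 genes in treated T24, 28 in untreated T24, 28 in treated TCC-SUP and 31 in untreated TCC-SUP. In treated T24 it also had the highest level for 12. In 5637, treated replicate 3 had the highest level for 30 of 38 genes and untreated replicate 4 the lowest for 27. These positions were not counted over all genes.

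Averaged over T24, 5637 and TCC-SUP, 10 genes rose and 8 fell (23.3% and 19.9% of all genes tested, 43.2% together), with a median of -0.04 against 0.02 for all genes. The rises were NOP56, NOC3L, NOC4L, PES1, WDR74, UTP4, NOLC1, BYSL, TSR1 and NOB1, and the falls NOP58, NCL, NPM1, BOP1, WDR12, UTP18, UTP20 and NHP2. The mean rise was highest for BYSL (0.57, SE 0.09, adjusted p = 1.01e-05) and the mean fall deepest for NPM1 (-0.99, SE 0.07, adjusted p = 1.77e-10). The rises of NOP56, PES1, WDR74, NOLC1, BYSL and TSR1 and the falls of NOP58, NPM1, BOP1, WDR12, UTP18 and NHP2 held whichever of the 18 libraries of these lines was left out. Without TCC-SUP untreated replicate 1 the rises were 6 in place of 10.

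Among the abundant nucleolar proteins, NPM1 (chr5:171387116-171411137 in GENCODE release 29, GRCh38, plus strand) had the deepest fall of all 38 in T24 and in 5637. T24 had 2130, 2140 and 2258 CPM untreated and 896, 1016 and 1021 CPM treated. 5637 had 2618, 2439 and 2187 CPM untreated and 1206, 918 and 908 CPM treated. In TCC-SUP the values were 1097, 1227 and 1216 CPM untreated and 795, 694 and 891 CPM treated. In all 3 lines every treated library lay below every untreated one. On the log2 scale the changes were -1.15 in T24 (SE 0.13, adjusted p = 4.39e-07), -1.26 in 5637 (SE 0.13, adjusted p = 1.2e-07) and -0.57 in TCC-SUP (SE 0.13, adjusted p = 0.00233). CLS-439 had 855, 802 and 783 CPM untreated and 834, 656 and 652 CPM treated, which overlap (log2 fold change -0.19, SE 0.13, adjusted p = 0.848).

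NCL (chr2:231453531-231483641, minus strand) fell in T24 and 5637 and less deeply than NPM1. T24 had 1369, 1512 and 1752 CPM untreated and 874, 1291 and 1052 CPM treated. 5637 had 1438, 1390 and 1214 CPM untreated and 760, 1212 and 876 CPM treated. TCC-SUP had 597, 845 and 838 CPM untreated and 740, 942 and 984 CPM treated. Treated and untreated libraries did not overlap in T24 and 5637, by a narrow margin in 5637, and they overlapped in TCC-SUP. Log2 fold changes of NCL were -0.53 in T24 (SE 0.17, adjusted p = 0.0217), -0.51 in 5637 (SE 0.17, adjusted p = 0.0266) and 0.23 in TCC-SUP (SE 0.17, adjusted p = 0.389). The T24 call of NCL was lost without treated replicate 1, treated replicate 4 or untreated replicate 4 (log2 fold change from -0.51 to -0.39). Its 5637 call was lost without treated replicate 1 or 4 or untreated replicate 1 or 3 (from -0.51 to -0.41).

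DDX21, an RNA helicase that works on precursor RNA and polymerase I transcription (chr10:68956128-68985073, plus strand), fell in 5637. Its levels there were 410, 517 and 495 CPM untreated and 241, 319 and 299 CPM treated, with no overlap (log2 fold change -0.73, SE 0.22, adjusted p = 0.0151). The call was lost without 5637 untreated replicate 3 (-0.68). T24 had 269, 318 and 465 CPM untreated and 227, 495 and 401 CPM treated, and TCC-SUP had 228, 312 and 280 CPM untreated and 280, 367 and 464 CPM treated. Both overlap, and neither passed the test (0.10 and 0.44, adjusted p = 0.832 and 0.172). MYBBP1A, a nucleolar protein that interacts with transcription factors, fell in 5637 (-0.64, SE 0.16, adjusted p = 0.00445). UBTF, the factor that opens ribosomal DNA to polymerase I, did not pass the test in any line, with fold changes from -0.28 to 0.11. In this group of 5, 4 genes fell in 5637, 2 fell in T24, 1 fell in TCC-SUP (13.6%, 13.4% and 11.1% of all genes), and none rose in these lines.

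The box C/D proteins NOP56, NOP58 and FBL form the core of the particles that methylate ribosomal RNA, with FBL as the methyltransferase. NOP56 (chr20:2652145-2658393, plus strand) rose in TCC-SUP, from 198, 277 and 251 CPM to 324, 522 and 401 CPM. All treated libraries there lay above all untreated ones (log2 fold change 0.78, SE 0.18, adjusted p = 0.00295). It had 510, 592 and 664 CPM untreated and 576, 844 and 832 CPM treated in T24, and 437, 462 and 397 CPM untreated and 329, 523 and 397 CPM treated in 5637. Neither passed the test (0.35 and -0.05, adjusted p = 0.146 and 0.899), but NOP56 passed in T24 without treated replicate 1 (0.52).

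NOP58 (chr2:202265716-202303666, plus strand), the partner of NOP56, fell in 5637, from 210, 195 and 172 CPM to 104, 131 and 100 CPM. The libraries did not overlap (log2 fold change -0.79, SE 0.20, adjusted p = 0.00427). T24 had 154, 171 and 213 CPM untreated and 84.7, 179 and 185 CPM treated, and TCC-SUP had 108, 127 and 109 CPM untreated and 86.4, 97.9 and 115 CPM treated. Treated replicate 1 was the low library in both, and neither passed the test (-0.27 and -0.20, adjusted p = 0.361 and 0.535). The difference between the responses of these partners was not tested. FBL did not pass the test in any line, with fold changes from -0.32 to -0.03.

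The box H/ACA proteins DKC1, GAR1 and NHP2 form the particles that convert uridines to pseudouridines, with DKC1 as the synthase, and NOLC1 is a chaperone of snoRNPs. NOLC1 (chr10:102152176-102163871, plus strand) had the highest fold change of the 38 in TCC-SUP. Its levels there were 164, 208 and 193 CPM untreated and 271, 419 and 371 CPM treated, with no overlap (log2 fold change 0.91, SE 0.19, adjusted p = 0.0014). In 5637 it had 302, 317 and 296 CPM untreated and 202, 325 and 239 CPM treated, which overlap (-0.26, SE 0.19, adjusted p = 0.336). In T24 the values were 206, 227 and 247 CPM untreated and 204, 388 and 295 CPM treated (0.38, SE 0.19, adjusted p = 0.134). Without T24 treated replicate 1 the T24 value was 0.60 and passed the test.

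DKC1 (chrX:154762742-154777689, plus strand) fell in 5637, from 281, 302 and 263 CPM to 176, 207 and 156 CPM. The libraries did not overlap (log2 fold change -0.65, SE 0.15, adjusted p = 0.00178). T24 had 253, 294 and 374 CPM untreated and 232, 301 and 310 CPM treated, and TCC-SUP had 96.1, 137 and 117 CPM untreated and 125, 127 and 139 CPM treated, and both overlap. NHP2 (chr5:178149460-178153967, minus strand) fell in 5637 as well, from 177, 170 and 142 CPM to 121, 110 and 76.4 CPM (-0.66, SE 0.18, adjusted p = 0.00671). The NHP2 call was lost without 5637 treated replicate 4 (-0.49). NHP2 had 140, 129 and 122 CPM untreated and 147, 86.7 and 97.7 CPM treated in T24, where treated replicate 1 was the high library and the fold change passed without it (-0.49), and 77.4, 87.6 and 91.6 CPM untreated and 73.8, 69.6 and 54.5 CPM treated in TCC-SUP. GAR1 fell in T24 (-0.57, SE 0.18, adjusted p = 0.0168), a call lost without T24 treated replicate 4 (-0.52). Exons of NHP2 share 27.4% of their bases with RMND5B on the opposite strand, and whether counting used strand is not given in the sources used here.

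The small subunit processome is the large particle that makes the first cuts on the small subunit side of the precursor. UTP18 (chr17:51260528-51297936, plus strand), a WD-repeat subunit, fell in T24 and 5637. T24 had 71.4, 83.6 and 100.5 CPM untreated and 43.6, 32.2 and 44 CPM treated. 5637 had 122, 134 and 121 CPM untreated and 97.1, 73.8 and 79.2 CPM treated. TCC-SUP had 52.5, 49.7 and 49.6 CPM untreated and 44.5, 24 and 44.2 CPM treated. In each of the 3 lines all treated libraries lay below all untreated ones, and treated replicate 3 was the lowest. For UTP18 the log2 fold changes were -1.09 in T24 (SE 0.18, adjusted p = 6.53e-05), -0.59 in 5637 (SE 0.18, adjusted p = 0.0131) and -0.43 in TCC-SUP (SE 0.18, adjusted p = 0.0903). The 5637 call of UTP18 was lost without treated replicate 3 or 4 or untreated replicate 3 (from -0.56 to -0.51), and TCC-SUP passed without its treated replicate 1 and in the fit with the replicate number as a block.

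WDR43 (chr2:28894643-28948222, plus strand), which joins the earliest processome module, fell in 5637, from 188, 196 and 194 CPM to 100, 119 and 116 CPM (log2 fold change -0.79, SE 0.20, adjusted p = 0.00406). T24 had 89.5, 111 and 157 CPM untreated and 58.8, 115 and 106 CPM treated, and TCC-SUP had 54.6, 75.0 and 66.0 CPM untreated and 72.2, 75.5 and 93.7 CPM treated. The 5637 libraries did not overlap, while those of T24 and TCC-SUP did. UTP14A (chrX:129906121-129929761, plus strand), a partner of a processome helicase, rose in T24, with 97.6, 123 and 134 CPM untreated and 114, 220 and 214 CPM treated (0.63, SE 0.22, adjusted p = 0.0349). Treated replicate 1 lay within the untreated range. This UTP14A call was lost without T24 treated replicate 3 or 4 or untreated replicate 1 or 3 (from 0.46 to 0.65), and without the CLS-439 libraries (0.62). In 5637 UTP14A had 71.3, 76.6 and 67.7 CPM untreated and 38, 74.1 and 51.7 CPM treated (-0.40, SE 0.22, adjusted p = 0.197), and it passed there without treated replicate 3 (-0.68) and with the replicate block (-0.45). In TCC-SUP it had 51.1, 64.8 and 59.1 CPM untreated and 56.4, 97.7 and 80.4 CPM treated, which overlap.

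UTP4 (chr16:69131291-69231130, plus strand), another early processome subunit, rose in TCC-SUP, from 135, 162 and 142 CPM to 180, 176 and 206 CPM (log2 fold change 0.35, SE 0.12, adjusted p = 0.0374). Its libraries did not overlap, but the call was lost without TCC-SUP treated replicate 3 or 4 or untreated replicate 1 or 4 (from 0.28 to 0.39) and without the CLS-439 libraries (0.34). T24 had 153, 190 and 207 CPM untreated and 205, 223 and 243 CPM treated, which overlap but passed without treated replicate 1 (0.36) or untreated replicate 4 (0.38), and 5637 had 143, 145 and 128 CPM untreated and 146, 139 and 137 CPM treated. UTP20, a long scaffold protein, fell in 5637 (-0.58, SE 0.19, adjusted p = 0.0205), a call lost without 5637 treated replicate 3 or untreated replicate 3 or 4 (from -0.59 to -0.54). Of the 10 processome genes, 3 fell in 5637 and 1 in T24 (13.6% and 13.4% of all genes), while 1 rose in T24 and 1 in TCC-SUP (15.2% and 9.57%). NOP14, NOC4L, WDR75, RRP9 and UTP15 did not pass the test in any line. WDR75, a further early subunit, had the largest fold change of these 5 (0.69 in TCC-SUP, SE 0.26, adjusted p = 0.0638).

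Of the 6 late small subunit factors, 5 rose in T24, 3 fell in 5637 and 2 rose in TCC-SUP (15.2%, 13.6% and 9.57% of all genes). Of the T24 rises, those of TSR1 and PNO1 were each lost without any of 4 libraries. BYSL (bystin, chr6:41921188-41933046, plus strand), which joins the small subunit precursor, rose in T24 from 47.7, 62.8 and 57.5 CPM to 86.5, 95.9 and 103 CPM. It rose in TCC-SUP from 43.2, 56.6 and 56.9 CPM to 76.4, 103 and 94.3 CPM. In 5637 it had 58.5, 56.6 and 54.2 CPM untreated and 59.3, 72.9 and 54.4 CPM treated. The libraries did not overlap in T24 and TCC-SUP and did in 5637. Log2 fold changes of BYSL were 0.76 in T24 (SE 0.15, adjusted p = 0.00054), 0.80 in TCC-SUP (SE 0.15, adjusted p = 0.000677) and 0.14 in 5637 (SE 0.15, adjusted p = 0.532).

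TSR1 (chr17:2322503-2337507, minus strand), a GTPase-like factor that blocks early joining of initiation factors, followed BYSL in direction. T24 had 136, 150 and 183 CPM untreated and 165, 274 and 242 CPM treated, with treated replicate 1 inside the untreated range. TCC-SUP had 113, 149 and 143 CPM untreated and 166, 247 and 238 CPM treated, with no overlap. 5637 had 203, 217 and 206 CPM untreated and 176, 233 and 180 CPM treated. TSR1 rose in T24 (0.54 on the log2 scale, SE 0.17, adjusted p = 0.0221) and in TCC-SUP (0.69, SE 0.17, adjusted p = 0.0065), and 5637 did not pass the test (-0.09, adjusted p = 0.783). The T24 call of TSR1 was lost without treated replicate 3 or 4 or untreated replicate 1 or 3 (from 0.36 to 0.50), and the TCC-SUP call without treated replicate 3 or untreated replicate 1 (from 0.56 to 0.58).

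RRP12 (chr10:97356358-97426076, minus strand), a HEAT-repeat protein of subunit maturation and export, moved in opposite directions in T24 and 5637. T24 had 79.4, 95 and 87.2 CPM untreated and 183, 120 and 166 CPM treated. 5637 had 147, 158 and 157 CPM untreated and 111, 119 and 105 CPM treated. TCC-SUP had 59.3, 78.0 and 76.1 CPM untreated and 69.9, 81.4 and 85.6 CPM treated. Every treated T24 library lay above, and every treated 5637 library below, the untreated libraries of its line. The responses of RRP12 were, as log2 fold changes, 0.84 in T24 (SE 0.15, adjusted p = 0.000137), -0.46 in 5637 (SE 0.15, adjusted p = 0.0188) and 0.15 in TCC-SUP (SE 0.15, adjusted p = 0.516). The 5637 call of RRP12 was lost without treated replicate 4 (-0.42).

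PNO1 (chr2:68157844-68176238, plus strand), the partner of the nuclease NOB1, showed the same opposition. T24 had 39.1, 51.8 and 62.3 CPM untreated and 63.7, 78.3 and 75.2 CPM treated. 5637 had 80.6, 76.1 and 70.3 CPM untreated and 53.1, 55.3 and 43.2 CPM treated. TCC-SUP had 26.9, 34.3 and 32.6 CPM untreated and 29.8, 35.4 and 41.1 CPM treated. The groups did not overlap in T24, by a narrow margin, or in 5637, and they overlapped in TCC-SUP. PNO1 gave log2 fold changes of 0.50 in T24 (SE 0.16, adjusted p = 0.0184), -0.58 in 5637 (SE 0.16, adjusted p = 0.00697) and 0.18 in TCC-SUP (SE 0.16, adjusted p = 0.463). The T24 call of PNO1 was lost without treated replicate 3 or 4 or untreated replicate 1 or 3 (from 0.33 to 0.50), and the 5637 call without treated replicate 4 (-0.48).

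NOB1 itself rose in T24 (0.56, SE 0.13, adjusted p = 0.00264), from 108, 124 and 117 CPM to 183, 157 and 175 CPM, and did not pass the test in 5637 (-0.24, adjusted p = 0.188) or TCC-SUP (0.30, adjusted p = 0.116). LTV1, a factor that is removed before the last steps, fell in 5637 (-0.70, SE 0.21, adjusted p = 0.0137), a call lost without 5637 treated replicate 4 (-0.63) or untreated replicate 3 (-0.65). LTV1 shares 34.8% of its exon bases with other genes on its own strand, so its count is uncertain. TSR1 and NOB1 share 20.8% and 20.2% with genes on the opposite strand.

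Of the 10 large subunit factors, 6 rose in TCC-SUP (9.57% of all genes), 4 fell in 5637 (13.6%), and 2 rose and 1 fell in T24 (15.2% and 13.4%). Of the TCC-SUP rises, those of NOC2L, NOC3L, NOP2 and RRP1B were each lost without any of 4 or 5 of the 6 libraries. WDR12, PES1 and BOP1 form a single complex needed for the large subunit RNA. WDR12 (chr2:202874782-203014798, minus strand) had 60.3, 68.9 and 72.5 CPM untreated and 32.2, 41.7 and 46.5 CPM treated in T24. In 5637 it had 95.1, 89.7 and 84.4 CPM untreated and 41.9, 59.6 and 44.5 CPM treated, and in TCC-SUP 34.8, 47.2 and 41.9 CPM untreated and 37.5, 34.9 and 45.6 CPM treated. The treated libraries lay below the untreated ones in T24 and 5637 and overlapped them in TCC-SUP. WDR12 fell in T24 (log2 fold change -0.74, SE 0.16, adjusted p = 0.000974) and 5637 (-0.88, SE 0.16, adjusted p = 0.000159), with -0.07 in TCC-SUP (adjusted p = 0.826).

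PES1 (chr22:30576625-30607083, minus strand) rose in T24, from 231, 258 and 225 CPM to 325, 294 and 347 CPM. It rose in TCC-SUP from 104, 127 and 118 CPM to 146, 206 and 182 CPM. In 5637 it had 235, 228 and 214 CPM untreated and 178, 228 and 173 CPM treated. The libraries did not overlap in T24 or TCC-SUP and did in 5637. As log2 fold changes the PES1 responses were 0.44 in T24 (SE 0.13, adjusted p = 0.0143), 0.62 in TCC-SUP (SE 0.13, adjusted p = 0.0019) and -0.23 in 5637 (SE 0.13, adjusted p = 0.215). The T24 call of PES1 was lost without treated replicate 4 or untreated replicate 1 or 4 (from 0.38 to 0.40).

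BOP1 (chr8:144262102-144291370, minus strand), the third subunit, fell in 5637 and was the only one of the 38 to pass the test in CLS-439. 5637 had 160, 141 and 135 CPM untreated and 83.4, 91.6 and 73.5 CPM treated. CLS-439 had 98.5, 100 and 99.4 CPM untreated and 48.6, 51.4 and 53.4 CPM treated. T24 had 172, 172 and 166 CPM untreated and 198, 97.5 and 132 CPM treated, and TCC-SUP had 43.6, 66.7 and 55.5 CPM untreated and 48.3, 51.6 and 43.0 CPM treated. The groups did not overlap in 5637 and CLS-439, and in T24 treated replicate 1 lay above all untreated libraries while the other treated libraries lay below them. BOP1 had log2 fold changes of -0.81 in 5637 (SE 0.18, adjusted p = 0.00111), -0.96 in CLS-439 (SE 0.18, adjusted p = 0.00721), -0.26 in T24 (SE 0.17, adjusted p = 0.305) and -0.21 in TCC-SUP (SE 0.18, adjusted p = 0.436). Without T24 treated replicate 1 the T24 fold change of BOP1 was -0.56 and passed the test. Differences between the responses of the 3 subunits were not tested.

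WDR74 (chr11:62832342-62841809, minus strand), a factor of early large subunit particles, rose in T24 and TCC-SUP. T24 had 73.0, 79.7 and 68.0 CPM untreated and 127, 105 and 103 CPM treated. TCC-SUP had 35.9, 42.3 and 39.5 CPM untreated and 54.4, 85.8 and 64.2 CPM treated. 5637 had 87.8, 80.4 and 78.5 CPM untreated and 79.1, 99.9 and 78.3 CPM treated. The treated libraries lay above the untreated ones in T24 and TCC-SUP and overlapped them in 5637. WDR74 had log2 fold changes of 0.60 in T24 (SE 0.15, adjusted p = 0.00348), 0.80 in TCC-SUP (SE 0.15, adjusted p = 0.000604) and 0.06 in 5637 (SE 0.15, adjusted p = 0.83).

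NOP16 (chr5:176383938-176388975, minus strand), a large subunit factor, fell in 5637, from 93.8, 91.7 and 80.6 CPM to 44, 62.7 and 43.0 CPM, with no overlap (log2 fold change -0.83, SE 0.16, adjusted p = 0.000347). T24 had 60.2, 68.9 and 72.7 CPM untreated and 61.7, 62.4 and 70.6 CPM treated, and TCC-SUP had 34.7, 46.3 and 43.9 CPM untreated and 45.1, 60.1 and 56.5 CPM treated. Both overlap, and neither passed the test (-0.05 and 0.37, adjusted p = 0.891 and 0.103), but NOP16 passed in TCC-SUP without treated replicate 1 (0.49). RRP1B (chr21:43659548-43696079, plus strand) fell in 5637, from 222, 215 and 214 CPM to 171, 166 and 148 CPM, and rose in TCC-SUP, from 81.5, 89.8 and 84.9 CPM to 100, 104 and 116 CPM. Neither line's libraries overlapped (-0.42, SE 0.11, adjusted p = 0.00374 in 5637 and 0.32, SE 0.11, adjusted p = 0.0335 in TCC-SUP). T24 had 99.0, 119 and 126 CPM untreated and 108, 99.8 and 108 CPM treated, which overlap (-0.12, adjusted p = 0.442). The TCC-SUP call of RRP1B was lost without any of 5 of the 6 TCC-SUP libraries, all but treated replicate 1 (from 0.26 to 0.35), and without the CLS-439 libraries (0.30).

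NOC2L (0.41, SE 0.14, adjusted p = 0.0353) and NOC3L (0.65, SE 0.21, adjusted p = 0.0316), which work in pre-ribosome transport, rose in TCC-SUP. Calls of NOC2L were lost without TCC-SUP treated replicate 3 or 4 or untreated replicate 1 or 4 (from 0.27 to 0.45). Calls of NOC3L were lost without any TCC-SUP library other than treated replicate 1 (from 0.45 to 0.71) and without the CLS-439 libraries (0.63). NOP2 rose in TCC-SUP (0.69, SE 0.24, adjusted p = 0.038), a call lost without treated replicate 3 or 4 or untreated replicate 1 or 4 (from 0.54 to 0.71). NOP2 rested on 14 to 180 reads per library, and 54.4% of its exon bases are shared on the same strand with AC006064.6, so its count is uncertain. GNL3 (nucleostemin, a nucleolar GTPase) did not pass the test in any line, with fold changes from -0.21 to 0.36. The responses of T24, 5637 and TCC-SUP did not pass the test of a difference for NOC2L (adjusted p = 0.0783), NOC3L (0.349) or NOP2 (0.216).

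The lines' responses were then compared directly. Responses differed among T24, 5637 and TCC-SUP for 12 of the 38 genes (6.86% of all genes tested), and among all 4 lines for 18 (16% of all genes). The 12 were RRP12, NOP16, RRP1B, PNO1, PES1, NOLC1, NOB1, NPM1, DKC1, WDR43, WDR12 and DDX21. Of these, RRP12, NOP16, RRP1B, PNO1 and PES1 passed whichever of the 18 libraries of these lines was left out. Shares of all genes are not given for the refits that follow, so a change in these counts is not particular to the 38 genes. The count of 12 was 23 without T24 treated replicate 1 and 21 without TCC-SUP treated replicate 1. It was 5 without 5637 treated replicate 4, 6 without 5637 untreated replicate 1 or TCC-SUP untreated replicate 1, and 7 without 5637 untreated replicate 3, T24 untreated replicate 3, TCC-SUP treated replicate 4 or TCC-SUP untreated replicate 4. It was 6 when CLS-439 was left out of the fit, 19 by DESeq2 and 20 with the replicate number as a block. The count of 18 was 11 without 5637 untreated replicate 1 or 3, CLS-439 untreated replicate 1 or TCC-SUP untreated replicate 1.

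Of the 3 pairs of lines compared, TCC-SUP and 5637 had the largest median difference. By edgeR the response of TCC-SUP was higher than that of 5637 for 9 genes and lower for 0 (0.97% and 1.73% of all genes, 2.7% together). With an unadjusted p under 0.05, 28 were higher and 0 lower, and DESeq2 called 16 higher and 0 lower. These shares of all genes apply to the adjusted edgeR calls only. The median difference of the 38 was 0.71 on the log2 scale, against -0.03 for all genes, and 37 of 38 differences were positive. The 9 genes were NOP16, NOLC1, DDX21, WDR43, PES1, DKC1, WDR12, RRP1B and NPM1. NOP16 differed by 1.20 (SE 0.23, adjusted p = 0.00359), RRP1B by 0.75 (SE 0.15, adjusted p = 0.00664) and PES1 by 0.84 (SE 0.19, adjusted p = 0.0124), and these calls held whichever of the 12 libraries was left out. NOLC1 differed by 1.17 (SE 0.27, adjusted p = 0.0145), lost without TCC-SUP untreated replicate 1 (1.09). The other 5 genes were each lost without 8 or 9 of the 12 libraries, taken in turn. The count of 9 was 16 without TCC-SUP treated replicate 1 and 18 with the replicate block. It was 4 without 5637 treated replicate 4, any of the 3 untreated 5637 libraries, TCC-SUP treated replicate 4 or TCC-SUP untreated replicate 4, 3 without TCC-SUP untreated replicate 1, and 4 without CLS-439.

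**Figure D3:**
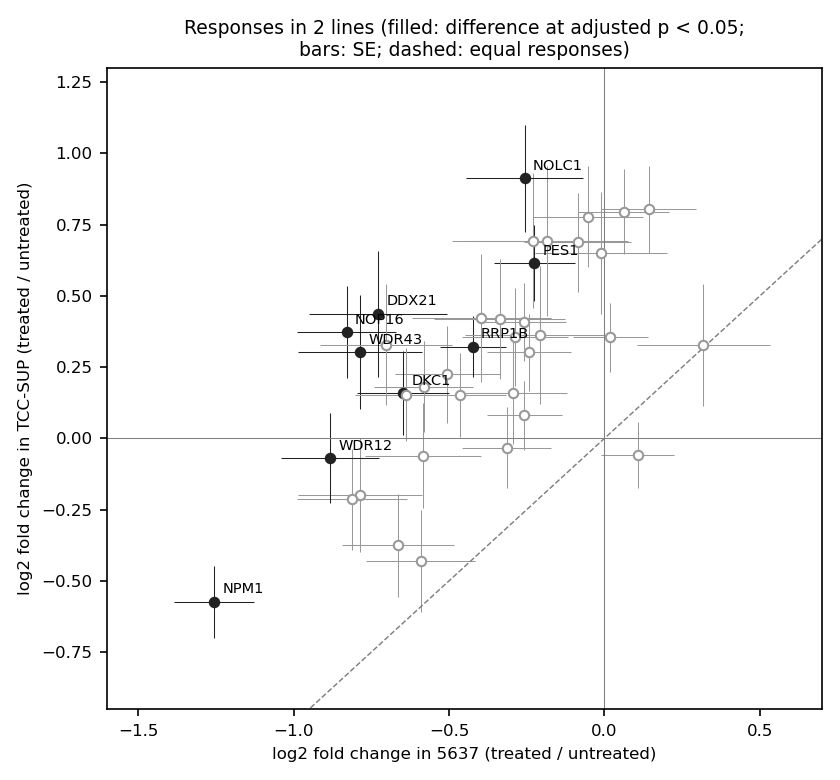
Log2 fold change of each of the 38 genes in TCC-SUP (vertical axis) against that in 5637 (horizontal axis), with bars for 1 SE and a dashed line of equal responses. Of the 38 points 37 lie above that line, and the 9 genes whose responses passed the test of the difference are named.

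Against T24, the response of 5637 was lower for 4 genes and higher for 0 by edgeR (1.77% and 1.7% of all genes, 3.47% together). With an unadjusted p under 0.05, 15 were lower and 1 higher, and DESeq2 called 7 lower and 0 higher, without shares of all genes. The 4 were RRP12 (-1.31, SE 0.21, adjusted p = 0.000592), PNO1 (-1.09, SE 0.22, adjusted p = 0.00582), NOB1 (-0.80, SE 0.19, adjusted p = 0.0167) and PES1 (-0.66, SE 0.19, adjusted p = 0.0473). RRP12 and PNO1 held whichever of the 12 libraries was left out. The NOB1 difference was lost without 5637 treated replicate 4, 5637 untreated replicate 1 or T24 untreated replicate 1 (from -0.75 to -0.74). The median difference was -0.42 (0.00 for all genes). The count of 4 was 10 without T24 treated replicate 1, 2 without 5637 treated replicate 4, 5637 untreated replicate 1 or T24 untreated replicate 1, and 7 with the replicate block. PES1 was lost without any of 9 of these 12 libraries (from -0.73 to -0.59), all but 5637 treated replicate 3 and T24 treated replicates 1 and 3.

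Between TCC-SUP and T24, edgeR called 0 differences of response in either direction (1.38% of all genes were higher in TCC-SUP and 2.42% lower, 3.79% together). At an unadjusted p under 0.05, 7 were higher and 1 lower, and DESeq2 called 2 higher and 1 lower, without shares of all genes. The median difference was 0.22 against -0.02 for all genes. The comparisons of TCC-SUP with T24 and with 5637 share the TCC-SUP libraries, and those of 5637 share its own.

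The summed level of the 38 genes is given with and without NPM1 and NCL, the most abundant of them. The sum in 5637 was 9388 ± 529 CPM untreated (SD, n = 3) and 6332 ± 659 treated, with ranges of 8786 to 9778 and 5872 to 7087 that do not overlap. T24 had 8936 ± 792 and 7807 ± 818. For TCC-SUP the sums were 5281 ± 589 and 5968 ± 637, and for CLS-439 they were 6143 ± 166 and 5815 ± 250. The treated and untreated ranges of the sum of all 38 overlap in T24, TCC-SUP and CLS-439. NPM1 and NCL made up 41.7% of the untreated and 26.2% of the treated sum in T24. Their part of the sum went from 40.03% to 31.0% in 5637 and from 36.7% to 28.2% in TCC-SUP, while CLS-439 had 35.8% untreated and 36.9% treated. The sum of the other 36 genes was 5215 ± 538 CPM untreated and 5757 ± 571 treated in T24. Without these 2 genes 5637 had 5626 ± 210 and 4372 ± 507, TCC-SUP had 3341 ± 382 and 4286 ± 497, and CLS-439 had 3945 ± 57.9 and 3668 ± 222. In T24 the sum was thus lower and the sum without these 2 genes higher after MMC, both within overlapping ranges. Without these 2 genes TCC-SUP ranged from 2924 to 3675 CPM untreated and 3712 to 4580 treated, with no overlap by a narrow margin. The ranges of 5637 without them, 5385 to 5770 CPM untreated and 4071 to 4958 treated, did not overlap either.

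**Figure D4:**
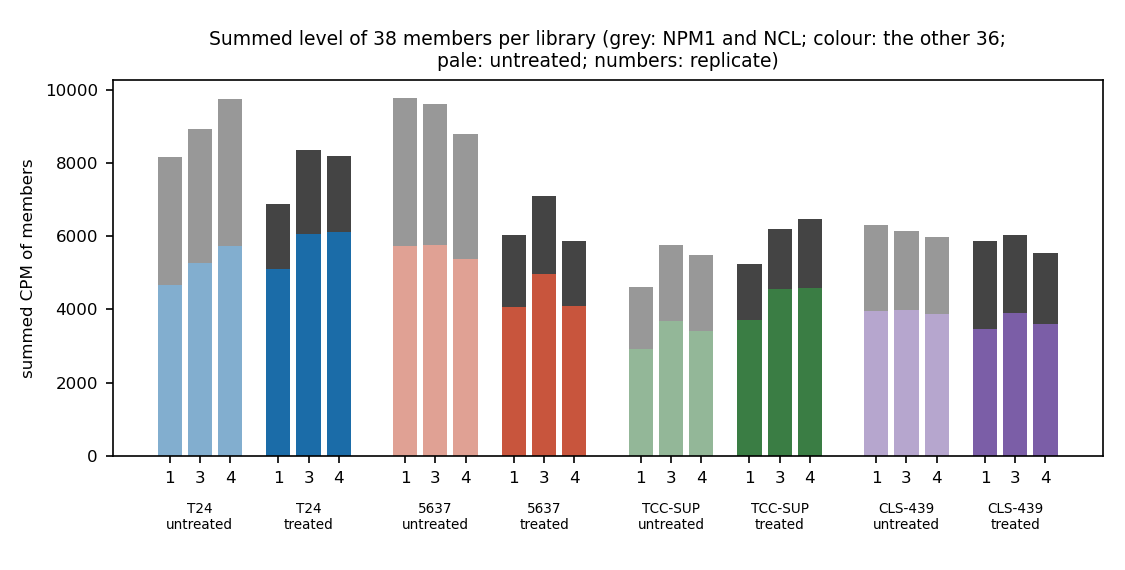
Summed CPM of the 38 genes in each library by line and treatment, with NPM1 plus NCL (grey) stacked on the other 36 genes (colour) and untreated libraries in paler shades. In 5637 the treated libraries (5872 to 7087 CPM in all) lie below the untreated ones (8786 to 9778 CPM).

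In CLS-439, reads of some genes were spread over pseudogenes, copies that resemble the gene's processed message. Reads in the 2 named pseudogenes of NOC2L were 43.3% to 46.3% of the reads of NOC2L and its pseudogenes in CLS-439, and 0.156% to 0.564% in the other lines. The 45 named pseudogenes of NPM1 held 27.2% to 29.9% against 1.40% to 2.39%. The 3 of NOP56 held 8.83% to 11.5% against 0% to 0.551%, and the 2 of NHP2 5.73% to 8.80% against 0.312% to 0.878%. The CLS-439 levels of these genes are therefore uncertain. With pseudogene reads added, untreated CLS-439 had 1146 CPM of NPM1 in place of 813, 186 CPM of NOC2L in place of 104, 379 CPM of NOP56 in place of 341 and 84.1 CPM of NHP2 in place of 78.2. Against the mean of the other untreated lines, 5 of the 38 were higher and 14 lower in CLS-439 (40.4% and 34.2% of all genes, 74.6% together), with a median of -0.06. The 5 were FBL, NOP14, NOP16, NOC3L and BYSL, and DESeq2 called 9 in place of 5. The count of 5 was 2 without CLS-439 untreated replicate 1 and 3 without any of the untreated 5637 libraries, CLS-439 untreated replicate 3, T24 untreated replicate 1 or TCC-SUP untreated replicate 1. The deepest were NOP2 (-1.79, with a count made uncertain by shared exon bases), UTP4 (-1.54) and NOC2L (-1.42, against which the pseudogene share stands). How much of the CLS-439 differences the shared reads make up was not tested.

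**Figure D5:**
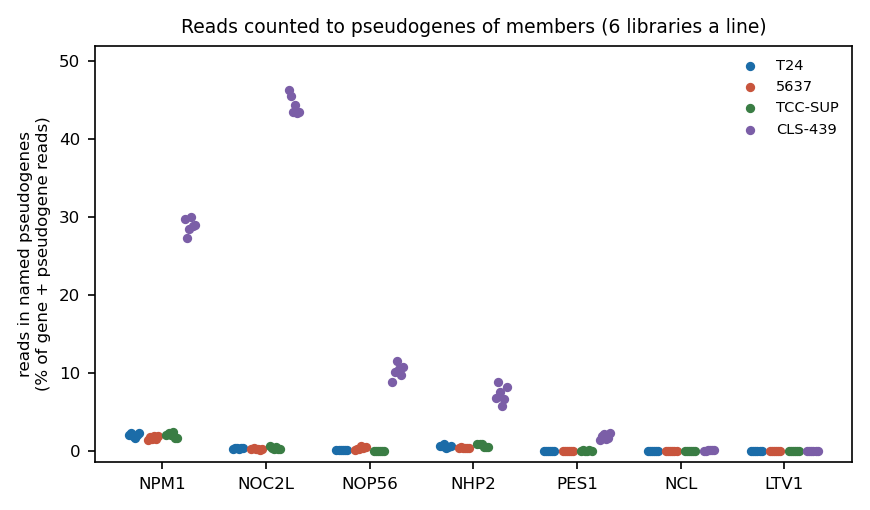
Share of the reads of a gene and its named pseudogenes that fell in the pseudogenes, in percent, for 7 genes, with 1 point for each of 6 libraries a line. CLS-439 lies above the others for NOC2L (43.3% to 46.3%), NPM1 (27.2% to 29.9%), NOP56 and NHP2.

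A further 101 genes of ribosome biogenesis, all tested and none of them among the 38, had medians in the same order over the lines. In T24, 19 rose and 11 fell (15.2% and 13.4% of all genes), with a median of 0.07. In 5637, 3 rose and 24 fell (15.9% and 13.6%), with a median of -0.21. In TCC-SUP, 28 rose and 1 fell (9.57% and 11.1%), with a median of 0.31. In CLS-439 the median was -0.07. ZNF622, a late large subunit factor, rose in all of the first 3 lines, by 1.40 in T24 (SE 0.21, adjusted p = 1.91e-05), 0.79 in 5637 (SE 0.20, adjusted p = 0.00486) and 0.84 in TCC-SUP (SE 0.20, adjusted p = 0.00448). DDX10, a helicase, fell in 5637 (-1.31) and TCC-SUP (-0.74), and HEATR1, a processome scaffold, fell in 5637 (-1.07). NOL11 (-0.75) and NOL10 (-0.74) fell in T24, where PPAN (0.89) rose. SBDS (0.56), which frees new large subunits for translation, rose in 5637, although its near-identical pseudogene SBDSP1 makes its count uncertain, and NMD3 (0.78), their export adaptor, rose in TCC-SUP.

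Features outside expression were then set beside the responses. In 5637, 7 of 18 genes with CACGTG in the window and 6 of 15 without it fell (13.6% of all genes). The medians were -0.31 and -0.26. In TCC-SUP, 5 of 18 with it and 4 of 15 without it rose (9.57% of all genes), with medians of 0.34 and 0.33. In T24, 4 rose and 2 fell of the 18, and 3 rose and 3 fell of the 15 (15.2% and 13.4% of all genes). The windows shown above belong to PES1, BYSL and PNO1, which rose in T24, as well as to UTP18, which fell there. Genomic span ran from 4508 to 140017 bases with a median of 18165. Spearman's rho of span with the log2 fold change, over 38 genes, was -0.34 for TCC-SUP, -0.32 for 5637, -0.28 for T24 and 0.30 for CLS-439, a weak relation across genes that share their libraries. WDR12 has the longest span and NHP2 the shortest. The spans of 7 genes (NOP56, NOP58, NCL, WDR43, DKC1, TSR1 and GNL3) hold 25 annotated small nucleolar RNAs, the only small RNAs counted. Some of these share annotated exon bases with the gene, as in NOP56 and DKC1. Among these hosts, 4 of 7 fell in 5637 (13.6% of all genes), 2 of 7 rose in TCC-SUP (9.57%), and 1 rose and 1 fell in T24 (15.2% and 13.4%). Of the 31 members without an annotated small nucleolar RNA, 13 fell in 5637, 9 rose in TCC-SUP, and 7 rose and 4 fell in T24.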

How the data were processed

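Messenger RNA of 24 libraries (4 lines, untreated or MMC-treated, 3 replicates each) was read from 1 table. The table deposited by the authors holds raw, unscaled counts per Ensembl gene. GRCh38, STAR 2.5.3a and featureCounts 1.6.2 are listed in the submitters' processing notes. The sources used here give neither a strand setting nor an annotation release, and nothing on reads with several matches. Per the labels' protocols, RNA was taken with a column kit and DNase and made into stranded poly(A) libraries. The treatment tag MCC was taken to mean MMC, the drug named in the protocol.

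Symbols, coordinates and exon lengths came from GENCODE release 29 (58216 of 58381 IDs). Genes passing filterByExpr were kept (20820 genes, 99.9% of reads), scaled by TMM and fitted with edgeR 4.0.16 (R 4.3.3), quasi-likelihood with robust estimates, 1 mean per group over all 24 libraries, 16 residual degrees of freedom. Calls were made at a Benjamini-Hochberg adjusted p under 0.05 over all genes. The scripts were tested on simulated data. Alternatives were DESeq2 1.42.0, its size factors, no filter, fewer lines, the replicate number as a block, and each replicate left out. Adding pseudogene reads was chosen after seeing the data.

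The members and lists were chosen with earlier results of these data known. Any member could be named. Values of every library are given for up to 2 members of each role group with the smallest p in the mean response and in the test of differing responses of T24, 5637 and TCC-SUP, and for the 3 largest rises and falls in each line. Of other pathway genes, the 2 largest rises and falls in each line are named. PES1, NOB1 and GAR1, whose library values are given in part as well, were added after their values were seen. The marker lists named in the text also held 3 leukocyte and 2 endothelial genes. PTPRC, a leukocyte marker, made up most of the 30.2 CPM of summed leukocyte markers in untreated TCC-SUP, against at most 0.328 elsewhere in untreated cells.

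No 2 libraries of a group agreed within sampling noise (lowest chi-square per gene over all pairs within groups 4.10). Deviations from the group mean of same-numbered treated and untreated libraries correlated at 0.11 to 0.32 in 5637 and 0.12 to 0.37 in CLS-439, where numbers were taken as pairs, and at -0.13 to 0.37 in T24 and -0.13 to 0.11 in TCC-SUP, where they were not. The main tests use no pairs in any line, 5637 and CLS-439 included. Counts from a fit with the replicate number as a block in every line are given as an alternative.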

Additional observations from a re-analysis of the deposited data

Results flagged for a closer look

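For 12 genes the response to MMC differed among T24, 5637 and TCC-SUP by edgeR's test of the difference. The adjusted p was 0.000985 for RRP12, 0.00428 for NOP16, 0.00836 for RRP1B, 0.00841 for PNO1 and 0.0118 for PES1, and these 5 passed whichever of the 18 libraries was left out. It was 0.0200 for NOLC1, lost without 5637 treated replicate 4 or TCC-SUP untreated replicate 1. It was 0.0229 for NOB1, lost without 5637 treated replicate 4, 5637 untreated replicate 1, T24 treated replicate 4 or T24 untreated replicate 1. It was 0.0300 for NPM1, 0.0430 for DKC1, 0.0435 for WDR43, 0.0436 for WDR12 and 0.0485 for DDX21, each lost without 10 to 14 of the 18 libraries taken in turn. NPM1 fell in all 3 lines, while RRP12 and PNO1 rose in T24 and fell in 5637. The fall of NPM1 was less deep in TCC-SUP than in 5637, a call lost without 9 of the 12 libraries taken in turn. Between TCC-SUP and T24 the responses of NPM1 did not pass the test of a difference. With CLS-439 in the comparison, 18 genes differed among the 4 lines.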

How the results depend on the processing

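No result reversed its direction under any alternative run. Counts that moved by more than 1.5 times were these. With DESeq2, 19 genes differed among T24, 5637 and TCC-SUP, 7 had a lower response in 5637 than in T24, 16 a higher and 0 a lower response in TCC-SUP than in 5637, 2 a higher and 1 a lower response in TCC-SUP than in T24, 1 was higher in untreated TCC-SUP than in T24, and 9 were higher in untreated CLS-439. DESeq2's size factors gave 1, 1 and 9 for the last of these 3 (lower response in TCC-SUP than in T24, higher in untreated TCC-SUP, higher in untreated CLS-439). With no filter, 16 had a higher response in TCC-SUP than in 5637, 1 than in T24, and 1 was higher in untreated TCC-SUP. Fitted on its own libraries, T24 gave 5 rises. Without CLS-439, 6 genes differed among the 3 lines, 4 had a higher response in TCC-SUP than in 5637, and 1 was higher in untreated TCC-SUP than in T24.

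One alternative took the replicate number as a block in every line, although numbers were taken as pairs only in 5637 and CLS-439. With it, 20 genes differed among the 3 lines. The response of TCC-SUP was higher than that of 5637 for 18 genes and than that of T24 for 2. The response of 5637 was lower than that of T24 for 7, and 2 genes fell in TCC-SUP. In untreated cells 1 gene was higher in TCC-SUP than in T24, and 8 were higher in CLS-439. Falls in 5637 were 19. Libraries correlated best with their own number in 6 of 6 cases in 5637, 5 of 6 in CLS-439, 4 of 6 in T24 and 2 of 6 in TCC-SUP.

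With replicates left out, the counts in T24 ranged from 1 to 13 rises and 3 to 7 falls, in 5637 from 3 to 18 falls and 0 to 0 rises, in TCC-SUP from 0 to 13 rises and 0 to 3 falls, and in CLS-439 from 0 to 1 falls. The mean response had 2 to 11 rises and 5 to 12 falls. Differing responses ranged from 0 to 23 among 3 lines and 0 to 27 among 4. Higher responses in TCC-SUP than in 5637 ranged from 0 to 19 and than in T24 from 0 to 2, lower ones than in T24 from 0 to 1, and lower ones in 5637 than in T24 from 0 to 10. In untreated cells, 5637 had 3 to 10 genes higher and 2 to 9 lower than T24, TCC-SUP 0 to 1 higher and 17 to 27 lower than T24 and 1 to 5 higher and 23 to 28 lower than 5637, and CLS-439 1 to 4 higher and 12 to 16 lower than the others. Most of the lowest counts came without replicate 4 in every group, with 2 libraries a group and fewer calls over all genes. The cause was not tested for the other changes. Of the tests of single genes, 353 lost and 17 gained a call with a replicate left out and 1301 kept it, and 40 lost, 8 gained and 727 kept it under other settings. Refitting each mean, differing-response or untreated CLS-439 comparison on fewer lines was not run apart from leaving out CLS-439.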
